A study of Mus musculus with 105 samples.

Results

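Immunoglobulin and B cell genes were followed here through DEN-treated mouse liver, from young tissue to tumours. The 6 genes are Ighm, Igkc, Iglc2, Iglc3, Jchain and Bank1, chosen by their symbols among the 12966 genes of the deposited matrix, and all 6 were found and tested. Igkc, Iglc2 and Iglc3 encode constant regions of the kappa and lambda light chains, and Ighm encodes the constant region of the mu heavy chain. Jchain encodes the joining chain that links the units of secreted IgM and dimeric IgA, and Bank1 encodes a B cell scaffold protein that acts in B cell receptor signalling.

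A B cell assembles its receptor from heavy and light chains and displays it at the surface, whereas a plasma cell secretes the same chains in bulk, so that a small number of plasma cells can carry most of the immunoglobulin RNA of a tissue. The adult liver does not make B cells in quantity, but B cells and plasma cells lodge in it and in its tumours. IgA bound to the joining chain is carried across epithelia by the polymeric immunoglobulin receptor, Pigr.

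The series holds 105 liver libraries in 30 groups from 2 sequencing groups, each with its own wild type (WT). Sequencing group 1 compares Ikk KO (IKO) and Shp2 KO (SKO) with WT, with 4 libraries a group, and sequencing group 2 compares beta catenin KO (BKO) and cMet KO (MKO) with WT, with 3 libraries a group. All animals, WT included, had received DEN (diethylnitrosamine, a chemical liver carcinogen), and each genotype was sampled at 1, 3, 5 and 8 months, the last as non-tumour liver and as tumour. The series title places the gene loss in hepatocytes; the Cre driver, the deleted exons and the Ikk subunit are not given in the sources used here. The labels number the libraries of a group as biological replicates without naming animals, so the p-values measure the spread between these libraries. Because the tissue is bulk liver, fewer cells of a type and less RNA per cell cannot be told apart in any value below.

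Libraries held between 4676444 and 20231121 reads, and albumin and the other hepatocyte genes were abundant in every one. Ptpn11, which encodes Shp2, fell by 1.12 on the log2 scale in SKO non-tumour liver, but 1 library labelled SKO at 3 months, replicate 2, had 375.1 normalised reads of it against 350.1 to 387.7 in WT of that age. Over the 4 ages Ikbkb fell by 0.32 in IKO and Met by 0.31 in MKO non-tumour liver, but at 3 months both were near WT, with mean normalised reads of 352.9 for Ikbkb against 340.4 in WT, and of 223.1 for Met against 224.3. Ctnnb1 differed by −0.01 (adjusted p = 0.931, limma) between BKO and WT; these libraries count 3′ ends of transcripts, and reads outside a deleted part check nothing. Levels below are normalised reads, that is reads divided by the library's size factor, and differences are on the variance-stabilised log2 scale of the deposited values, which understates the change of genes with few reads. A gene counts as called when its adjusted p is below 0.05. Wherever the libraries of 2 groups are said not to overlap, the share of all genes without overlap was not counted.

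The members lie on 5 chromosomes of GRCm38. Igkc occupies 70726435 to 70726966 on the plus strand of chromosome 6 as a single exon, and Ighm occupies 113418558 to 113422730 on the minus strand of chromosome 12. Jchain occupies 88519809 to 88527891 on the minus strand of chromosome 5, and Bank1 136053363 to 136326066 on the minus strand of chromosome 3. Iglc3 (19065230 to 19065681) and Iglc2 (19198396 to 19200351) lie on the minus strand of chromosome 16. Their coding sequences are printed because the 2 genes are so alike that a read from the coding part can fit both; capitals mark the bases that differ. The sequences come from the GENCODE transcripts of GRCm38, chr16:19198553-19198852 for Iglc2 and chr16:19065382-19065681 for Iglc3, and run 5′ to 3′ on the minus strand over the first 300 bases of each.
Iglc2: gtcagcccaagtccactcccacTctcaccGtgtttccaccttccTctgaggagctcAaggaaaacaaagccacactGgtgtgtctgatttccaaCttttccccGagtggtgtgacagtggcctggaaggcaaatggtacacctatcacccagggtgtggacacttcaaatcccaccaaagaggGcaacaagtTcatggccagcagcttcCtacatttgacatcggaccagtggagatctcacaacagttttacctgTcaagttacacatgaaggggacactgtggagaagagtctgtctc
Iglc3: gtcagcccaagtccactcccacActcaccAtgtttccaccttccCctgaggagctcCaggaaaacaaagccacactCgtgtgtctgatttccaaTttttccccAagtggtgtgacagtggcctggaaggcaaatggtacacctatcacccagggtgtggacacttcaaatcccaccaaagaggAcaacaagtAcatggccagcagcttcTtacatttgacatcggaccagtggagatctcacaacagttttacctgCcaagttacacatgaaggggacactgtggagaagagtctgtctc
Over 314 aligned coding bases 11 differed, which is 96.5% identity, and the last 57 bases were identical. In the transcribed part after the coding sequence, nearer the 3′ ends that these libraries count, identity was 90.2%, with 9 mismatched and 5 gapped bases. How the counting treated reads that fit both genes is not given in the sources used here, so the split between Iglc2 and Iglc3 is uncertain.

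Igkc was by far the most counted member, with 144 to 10849 reads per library in sequencing group 1 and 165 to 40904 in sequencing group 2. Ighm had 65 to 2973 and 80 to 1186 reads, and Bank1 6 to 68 and 11 to 114. The lambda genes and Jchain were sparse: Iglc2 had 0 reads in 9 of 60 libraries of sequencing group 1, Iglc3 in 6 and Jchain in 2. A count of 0 allows up to 3 reads. These counts are not per length, and they order the genes by the precision of their values and not by their expression.

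Replicates differed more in the immunoglobulin genes than in nearly all other genes. The within-group SD of Igkc exceeded that of 99.9% of genes in sequencing group 1 and 99.3% in sequencing group 2, and that of Ighm exceeded 99.7% and 97.2%. Jchain exceeded 98.7% and 94.6%, Iglc3 94.9% and 93.2%, and Iglc2 89.8% and 91.5%. Bank1 was far steadier in sequencing group 1, above 43.7% of genes there and 82.3% in sequencing group 2.

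**Figure D1:**
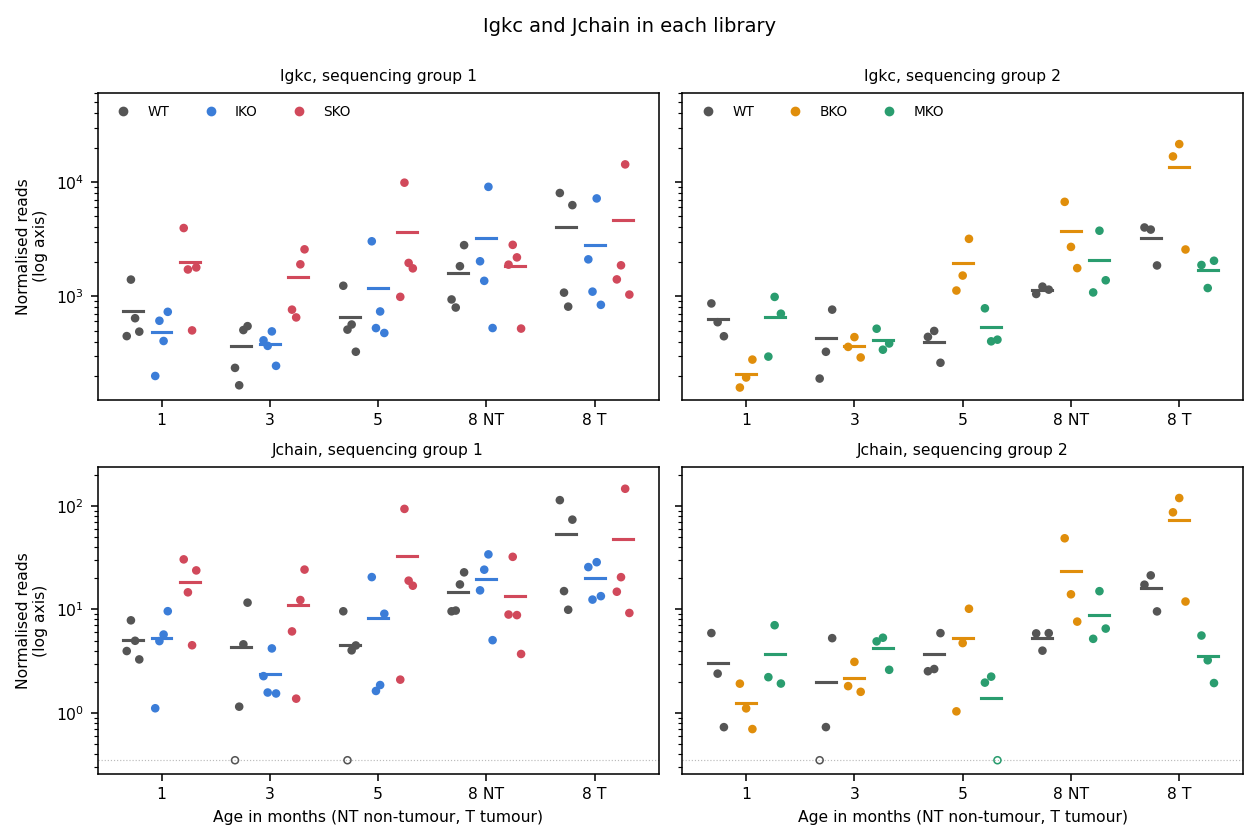
Normalised reads of Igkc and Jchain in each library (log axis) by genotype and stage for both sequencing groups; each point is 1 library, the bar is the group mean, and an open circle on the dotted line is a library with 0 reads. The SKO points of Igkc at 1, 3 and 5 months lie mostly above WT, and the BKO tumours hold the library with the most Igkc, at 21532.

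In SKO non-tumour liver the kappa light chain rose, and with it the lambda gene Iglc3. Over the 4 ages, 2 of the 6 members were called higher, as were 12% of all genes, and none was called lower. The median difference of the members was 0.36 on the log2 scale and that of all genes 0.01. Jchain and Iglc2 had positive differences that missed the threshold.

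Igkc at 1 month had 3956, 1714, 501.2 and 1786 normalised reads in SKO and 446.6, 1398, 641.0 and 488.8 in WT. At 3 months the values were 761.9, 651.3, 1902 and 2574 in SKO and 235.3, 165.5, 504.6 and 546.1 in WT. At 5 months they were 986.7, 9885, 1956 and 1753 in SKO and 1234, 509.1, 564.4 and 325.9 in WT. Every SKO library was above every WT library at 3 months, and the groups overlapped at 1 and 5 months. At 8 months the non-tumour values were 1889.7, 2819, 2188 and 520.0 in SKO and 935.9, 795.2, 1832 and 2802 in WT, with broad overlap. Over the 4 ages 14 of 16 SKO libraries were above the WT median of 555.3, and the difference was 1.31 ± 0.38 (SE, n = 16 and 16; 95% confidence interval 0.54 to 2.07; limma adjusted p = 0.0093). It was 1.14 to 1.44 with any 1 library left out, and 1.38 without the SKO library of WT-like Ptpn11. The SKO difference in Igkc did not vary detectably with age (limma interaction, adjusted p = 0.552).

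Iglc3 was counted at a few reads per library. In SKO it ranged from 2.46 to 68.0 normalised reads with a median of 6.39, and in WT from 0 to 10.7 with a median of 3.52. Of the SKO libraries 12 of 16 were above the WT median. The difference was 0.42 ± 0.15 (SE, limma adjusted p = 0.0303), and it was 1.14 with limma-voom on the recovered reads. It missed the threshold without any of 6 single libraries, among them SKO at 5 months, replicate 2 (0.31, adjusted p = 0.0783). Jchain differed by 0.50 ± 0.21 (SE, adjusted p = 0.0719) and Iglc2 by 0.31 ± 0.13 (adjusted p = 0.0657), both positive. Ighm and Bank1 differed by 0.08 and 0.01, so that the mu heavy chain showed no shift that these libraries could resolve, with a 95% interval of −0.50 to 0.65.

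At single ages the one member called in SKO was Iglc3 at 5 months, where 2.61% of all genes were called higher. At 1, 3 and 8 months 0 members were called by limma, against 16.1%, 5.19% and 5.03% of all genes, and 1, 2 and 1 members had an unadjusted p below 0.05. Its values were 9.44, 68.0, 5.92 and 7.26 normalised reads in SKO and 0, 1.43, 2.68 and 4.48 in WT, without overlap. The difference was 0.98 ± 0.29 (SE, n = 4 and 4, limma adjusted p = 0.031), and 0.55 (adjusted p = 0.264) without SKO replicate 2. Quantile normalization, limma-voom and a fit of the 2 groups alone also ended the call (adjusted p = 0.0523, 0.0671 and 0.16). That library also held 9885 normalised reads of Igkc, 3157 of Ighm and 93.4 of Jchain, each the highest of its group.

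**Figure D2:**
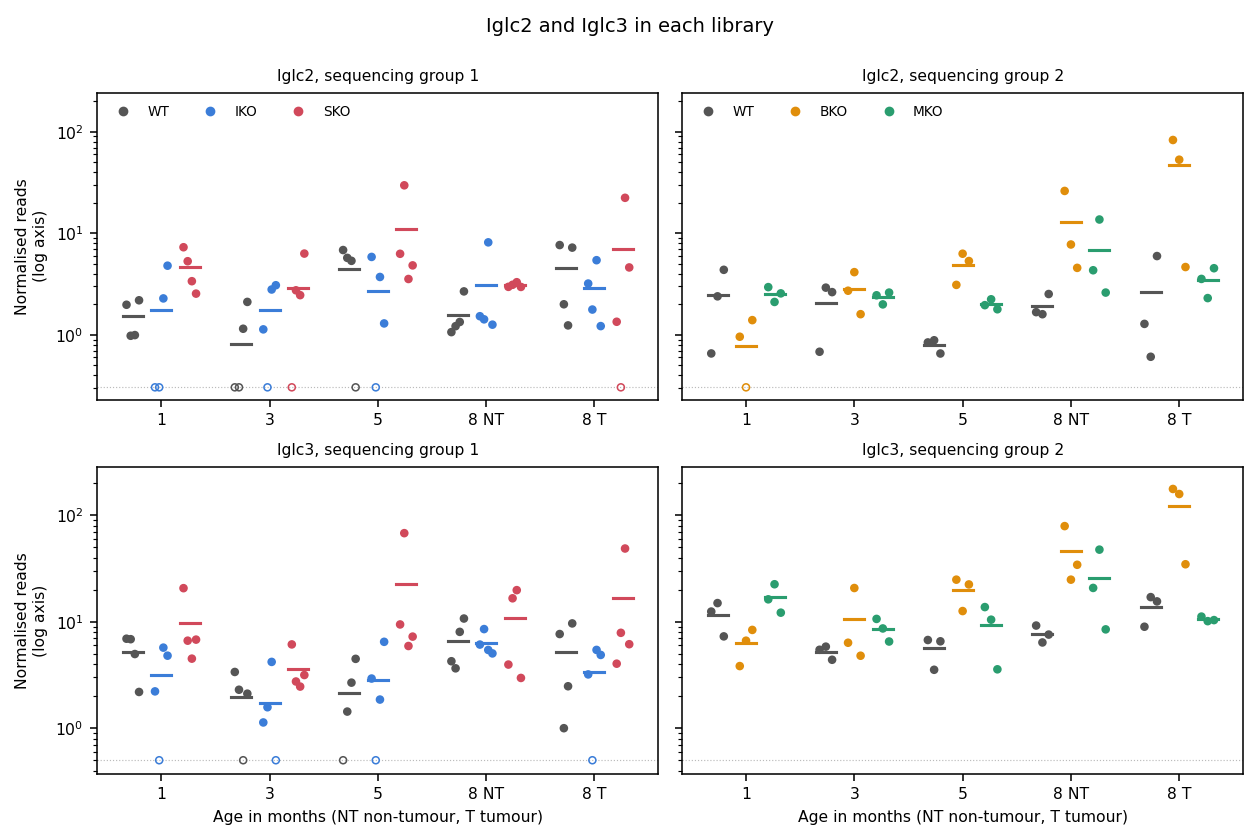
Normalised reads of the lambda constant genes Iglc2 and Iglc3 in each library (log axis) by genotype and stage; points are libraries, bars are group means, and open circles on the dotted line are libraries with 0 reads. Iglc2 lies under 10 reads in most libraries, and the BKO tumours reach 83.1 for Iglc2 and 176.7 for Iglc3.

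Heavy-chain genes outside the 6 members were called in the same SKO liver. Ighg2b, an IgG constant gene, ranged from 34.9 to 1185 normalised reads in SKO and from 7.47 to 355.3 in WT non-tumour liver, and 15 of 16 SKO libraries were above the WT median. Its difference was 1.46 ± 0.47 (SE, limma adjusted p = 0.0186). Ighg3 was at 0 reads in 8 of 16 WT and 1 of 16 SKO libraries, and rose by 0.87 ± 0.25 (adjusted p = 0.0086). The other heavy-chain genes measured were not called: Ighg2c, also an IgG gene, differed by 0.65 (adjusted p = 0.241), Igha by 0.26 (adjusted p = 0.551) and Ighd by 0.18 (adjusted p = 0.399).

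The markers of other cells in SKO non-tumour liver moved as follows. Of all genes 12% rose and 10.9% fell. Of 22 measured B cell surface and signalling genes 8 rose and 1 fell, with a median difference of 0.27. Cd72 (0.42, adjusted p = 0.0014, limma) and Cd22 (0.45, adjusted p = 0.0091), both inhibitory co-receptors of B cells, rose, and Bach2, a repressor of plasma cell differentiation, fell by 1.18. The summed level of the B cell list ranged from 262.4 to 987.6 normalised reads in SKO and from 278.2 to 891.9 in WT; Ms4a1, the gene of CD20, was at 0 in 20 of the 60 libraries of sequencing group 1. Of 14 plasma cell genes Sdc1 rose and Xbp1, Ell2 and Fkbp11 fell, but hepatocytes also express Sdc1 and Xbp1. Of 20 macrophage and Kupffer cell genes 15 rose and none fell, and their sum ranged from 2955 to 9597 in SKO and from 2444 to 8557 in WT. Of 10 hepatocyte genes 5 fell. The part of these shifts in the Igkc difference was not tested.

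In IKO non-tumour liver Bank1 fell, and no immunoglobulin member was called. Of the 6 members 1 was called lower, as were 5.17% of all genes. Bank1 ranged from 9.77 to 37.8 normalised reads in IKO with a median of 19.4, and from 14.3 to 63.7 in WT with a median of 32.8. Of the IKO libraries 14 of 16 were below the WT median, and the IKO mean was lower at all 4 ages. The difference was −0.34 ± 0.09 (SE, n = 16 and 16; 95% interval −0.51 to −0.17; limma adjusted p = 0.00736). Igkc differed by 0.15, Jchain by 0.09, Iglc2 by 0.01, Iglc3 by −0.06 and Ighm by −0.25, none past the threshold.

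Bank1 in IKO was lowest relative to WT at 1 month, but the IKO difference did not vary detectably with age (limma interaction, adjusted p = 0.782). IKO had 24.4, 27.2, 17.2 and 33.6 normalised reads, SKO 28.0, 38.5, 30.4 and 33.1, and WT 40.6, 63.7, 49.8 and 39.5. No IKO library reached the lowest WT library, and no SKO library did either. The IKO difference of −0.57 ± 0.17 (SE, n = 4 and 4, limma adjusted p = 0.0261) was called, where 4.75% of all genes were called lower; it was lost without any of 4 single libraries, among them WT replicate 2 (−0.47, adjusted p = 0.152), and when only the 2 groups were fitted (adjusted p = 0.0574). Of the B cell list, 1 of 22 rose and 1 fell in IKO non-tumour liver, Ralgps2 (0.25) and Bach2 (−0.47), where 3.87% of all genes rose and 5.17% fell. The list summed to 282.5 to 469.3 normalised reads in IKO. IKO and SKO were compared with the same WT libraries.

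**Figure D3:**
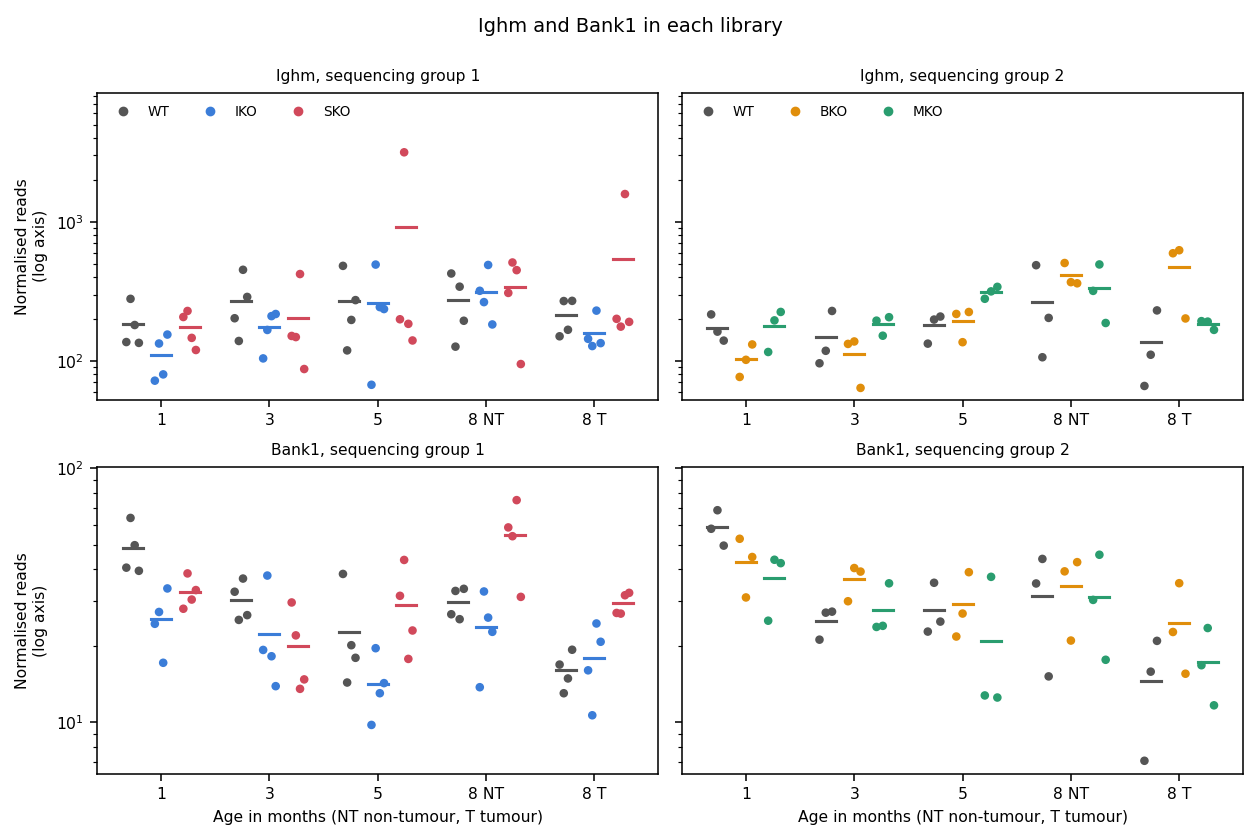
Normalised reads of Ighm and Bank1 in each library (log axis) by genotype and stage; points are libraries and bars are group means. Bank1 in IKO lies below WT at 1 month, Bank1 in SKO lies above WT at 8 months in 3 of 4 non-tumour libraries, and 1 SKO library at 5 months stands at 3157 for Ighm.

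The SKO difference in Bank1 depended on age. SKO at 8 months had 58.5, 54.0, 74.9 and 31.2 normalised reads of Bank1 in non-tumour liver, against 26.6, 32.9, 25.5 and 33.5 in WT. Replicates 1 to 3 were above every WT library and replicate 4 was within the WT range, whereas at 1 month all 4 SKO libraries were below WT. The knockout-by-age interaction was called for Bank1 (limma F test over the 4 ages, adjusted p = 0.0245), as it was for 5.68% of all genes. It was fitted with all libraries only, the SKO library of WT-like Ptpn11 included. Within SKO, Bank1 rose by 0.46 from 1 to 8 months (adjusted p = 0.0434), and 11% of all genes were called higher; without the 8-month replicate 3 the rise was 0.34 (adjusted p = 0.205), and a fit of the 2 groups alone gave an adjusted p of 0.0743.

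Set directly against IKO, which shares no libraries with it, SKO non-tumour liver had more of 3 members, and 11.5% of all genes were called higher. Igkc was higher by 1.16 (limma adjusted p = 0.0224), Iglc3 by 0.48 (adjusted p = 0.0118) and Bank1 by 0.35 (adjusted p = 0.0019). Without SKO at 5 months, replicate 2, the Igkc difference was 0.99 (adjusted p = 0.052).

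BKO livers started with little immunoglobulin RNA and ended with much. Igkc at 1 month had 158.2, 193.7 and 278.1 normalised reads in BKO and 863.6, 591.4 and 445.4 in WT, with every BKO library below every WT library. No member was called by limma in BKO at that age. At 5 months the order was turned, with 1121, 1516 and 3182 in BKO against 439.9, 495.7 and 260.9 in WT. At 8 months BKO non-tumour liver had 6713, 2703 and 1762 and WT 1045, 1213 and 1141, again without overlap. At 3 months BKO (359.4, 437.8 and 290.3) lay within the WT range (189.6, 325.6 and 762.3). The BKO-by-age interaction was called for Igkc (limma F test, adjusted p = 0.0488), as it was for 0.663% of all genes. It too was fitted with all libraries only.

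At 5 months Igkc was the one member called in BKO, by 2.11 ± 0.56 (SE, n = 3 and 3, limma adjusted p = 0.0201), where 3.51% of all genes were called higher. The call was lost without BKO replicate 3 (1.69, adjusted p = 0.133), and also without WT replicate 1 or 3. At 8 months Iglc3 was the one member called. It had 79.1, 24.9 and 34.3 normalised reads in BKO non-tumour liver and 9.21, 6.39 and 7.58 in WT, a difference of 1.21 ± 0.30 (SE, adjusted p = 0.0157) where 3.15% of all genes were called higher; without BKO replicate 1 it was 0.89 (adjusted p = 0.147), and limma-voom and a fit of the 2 groups alone ended the call (adjusted p = 0.082 and 0.0768). Averaged over the 4 ages, 1 of 6 members was called higher, as were 10.6% of all genes: Iglc3 differed by 0.47 ± 0.15 (SE, adjusted p = 0.0237), and missed the threshold without BKO at 3 months, replicate 2, (0.41, adjusted p = 0.0574) or at 8 months, replicate 1 (0.39, adjusted p = 0.0609), and with limma-voom (0.98, adjusted p = 0.147). At 1 and 3 months 0 members were called by limma, against 4.37% and 1.54% of all genes, and 1 and 0 members had an unadjusted p below 0.05.

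From 1 to 8 months, 5 of the 6 members rose in BKO non-tumour liver, as did 4.17% of all genes. Igkc rose by 3.79 ± 0.56 (SE, n = 3 and 3, limma adjusted p = 0.000117) and Ighm by 1.76 (adjusted p = 0.0052). Ighm went from 76.7, 101.8 and 131.4 to 505.4, 368.2 and 361.2 normalised reads, and Jchain from 1.92, 1.11 and 0.699 to 48.6, 14.0 and 7.62. The 1-month and 8-month libraries did not overlap in any of the 5, and the share of all genes without overlap was not counted. Iglc3 rose by 1.32 (adjusted p = 0.0069), Jchain by 1.18 (adjusted p = 0.0191) and Iglc2 by 0.95 (adjusted p = 0.0315), but without the 8-month replicate 1 these came to 1.0, 0.79 and 0.65 and were no longer called. These 3 were also lost with limma-voom and when only the 2 groups were fitted.

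The same change with age was examined in the other genotypes. Whether the change from 1 to 8 months differed between BKO and any of them was not tested. The interaction given above for Igkc compared BKO with WT of sequencing group 2 over all ages jointly, and does not single out that change. In IKO Igkc rose by 2.06 (limma adjusted p = 0.0485) where 10.1% of all genes rose, and by 1.32 (adjusted p = 0.267) without 8-month replicate 3; quantile normalization, limma-voom, no trend in the moderation and a fit of the 2 groups alone also put it past 0.05. In MKO and in both WT series 0 of the 6 members were called by limma, against 13.2%, 7% and 1.72% of all genes, and 1 member in each had an unadjusted p below 0.05. Igkc in WT of sequencing group 2 went from 863.6, 591.4 and 445.4 at 1 month to 1045, 1213 and 1141 at 8 months.

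In BKO non-tumour liver, 2 of the 22 B cell genes rose, Cd72 (0.26) and Cd24a (0.44), and Bach2 fell by 0.51, a share near that of all genes, of which 10.6% rose and 9.04% fell. Of the 14 plasma cell genes 3 rose and none fell: Tent5c (0.87), Fkbp11 (0.68) and Sdc1 (0.34). The B cell list summed to 327.1 to 827.0 normalised reads in BKO and 284.0 to 664.8 in WT, and the macrophage list, of which 9 of 20 genes rose, to 5505 to 9711 and 3435 to 9827. Their part in the immunoglobulin differences was not tested.

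**Figure D4:**
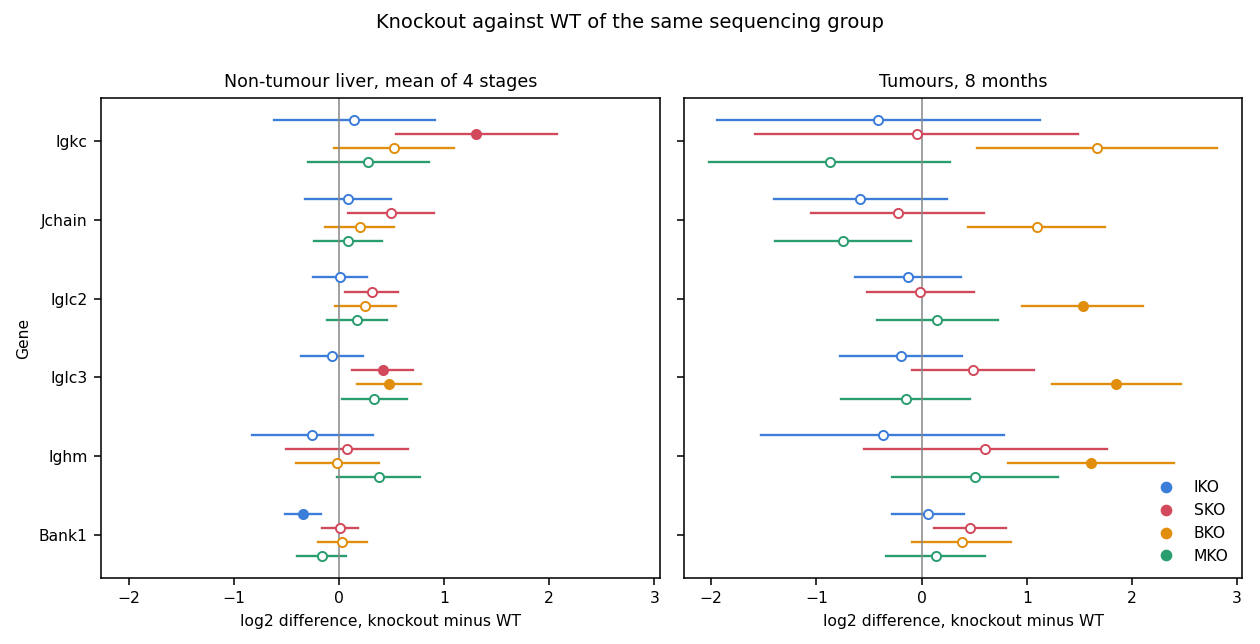
Log2 difference of each member between each knockout and its own WT with 95% confidence intervals (limma), non-tumour liver over 4 ages on the left and tumours on the right; filled points passed an adjusted p below 0.05. In tumours only BKO has filled points (Ighm, Iglc2 and Iglc3), and the tumour intervals are wider throughout.

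BKO tumours held the most light-chain RNA of sequencing group 2. Of the 6 members 3 were called higher than in WT tumours, as were 0.386% of all genes, and none was called lower; the median difference of the members was 1.57 against 0.00 for all genes. Iglc3 had 176.7, 158.4 and 34.7 normalised reads in BKO tumours and 8.98, 17.0 and 15.5 in WT tumours. Iglc2 had 83.1, 53.2 and 4.66 against 1.28, 0.609 and 5.98, and Ighm 594.0, 624.3 and 201.9 against 66.1, 110.8 and 230.7. BKO replicates 1 and 2 were above all WT tumours in each gene, whereas replicate 3 was above them for Iglc3 but within the WT range for Iglc2 and Ighm.

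Iglc3 was higher by 1.85 ± 0.30 (SE, n = 3 and 3; 95% interval 1.24 to 2.46; limma adjusted p = 0.0011), and by 1.53 to 2.42 with any 1 library left out, each time called. Iglc2 was higher by 1.53 ± 0.28 (adjusted p = 0.0066) and Ighm by 1.61 ± 0.39 (adjusted p = 0.0439). Igkc had 16787, 21532 and 2566 normalised reads against 4002, 3835 and 1859 in WT; its difference of 1.67 ± 0.56 missed the threshold (adjusted p = 0.213), as did that of Jchain, 1.10 ± 0.32 (adjusted p = 0.1205). Iglc2 was lost without BKO replicate 1 (1.10, adjusted p = 0.0502) or 2, and Ighm without any of 4 single libraries, among them WT replicate 1 (1.26, adjusted p = 0.185). When the spread was taken from BKO and WT tumours alone, no member was called (Iglc3, adjusted p = 0.633). Limma-voom lost Iglc2 (adjusted p = 0.122) and library weights lost Ighm (adjusted p = 0.234).

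The third lambda gene, Iglc1, had 650.4, 245.8 and 47.6 normalised reads in BKO tumours and 49.4, 33.5 and 29.9 in WT tumours, and was called as well (1.94 ± 0.46 SE, limma adjusted p = 0.0358), though not with limma-voom (adjusted p = 0.0616) or library weights (adjusted p = 0.101). No gene of the B cell surface, plasma cell or macrophage lists was called in BKO tumours, with medians of 0.30, 0.03 and 0.52. The B cell list summed to 665.3 to 848.6 normalised reads in BKO tumours and 486.3 to 753.0 in WT tumours.

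Against their own non-tumour liver, BKO tumours were called higher for 4 of 6 members, and 8.39% of all genes were. Iglc3 rose by 0.96 (limma adjusted p = 0.0283), Iglc2 by 0.85 (adjusted p = 0.0383), Jchain by 0.94 (adjusted p = 0.0416) and Igkc by 1.61 (adjusted p = 0.0486). Replicate 3 was the lowest of the tumours in these genes, and without it the 4 differences were 1.53, 1.48, 1.58 and 2.57. The calls depended on single libraries: with any 1 library left out, 0 to 4 of the 6 members were called. With replicate number as a block none was called, and the adjusted p of Igkc was 0.0617; with limma-voom only Iglc3 was called. The BKO tumour effect differed from the WT tumour effect in 0 members by limma, against 0.0308% of all genes, and 1 member had an unadjusted p below 0.05.

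BKO tumours also exceeded MKO tumours in 4 members, where 0.131% of all genes were called higher. Jchain had 86.6, 119.0 and 11.9 normalised reads in BKO and 5.59, 3.22 and 1.94 in MKO tumours, a difference of 1.84 (limma adjusted p = 0.0029). Igkc was higher by 2.54 (adjusted p = 0.0333), Iglc2 by 1.38 (adjusted p = 0.0146) and Iglc3 by 2.0 (adjusted p = 0.000555). In none of the 4 did the groups overlap, and the share of all genes without overlap was not counted. None of the 4 was called when the spread was taken from these 2 groups alone. Limma-voom lost Jchain (adjusted p = 0.0649) and Iglc2 (adjusted p = 0.146), and library weights lost Igkc (adjusted p = 0.0648).

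In MKO livers and tumours 0 members were called against WT by limma, and 0 by limma-voom, with 2.71% and 4.03% of all genes called by limma. At an unadjusted p below 0.05, 1 member passed in each. In non-tumour liver Iglc3 differed by 0.34 (limma adjusted p = 0.231) and Ighm by 0.38 (adjusted p = 0.308). In tumours Jchain was lower without overlap, with 5.59, 3.22 and 1.94 normalised reads against 17.3, 21.3 and 9.56 in WT, but its difference of −0.75 missed the threshold (adjusted p = 0.2085). In the same MKO tumours 12 of 20 macrophage genes and 3 of 7 MHC class II genes rose, and 2 of 22 B cell genes, Cd72 and Cd37, as did 2.99% of all genes.

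Tumours of IKO and SKO differed from WT tumours in 0 members by limma and 0 by limma-voom, against 3.6% and 1.72% of all genes, and at an unadjusted p below 0.05 in 0 and 1. That 1 was Bank1 in SKO, with 26.9, 26.8, 31.6 and 32.3 normalised reads against 16.9, 13, 14.9 and 19.3 in WT. All SKO tumours were above all WT tumours, and the difference was 0.46 ± 0.17 (SE, limma adjusted p = 0.1725).

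Bank1 was lower in tumours than in non-tumour liver of the same genotype in each of the 6 comparisons, and passed the test in 2. In WT of sequencing group 1 it fell by 0.47 (limma adjusted p = 0.0235), from 26.6, 32.9, 25.5 and 33.5 to 16.9, 13, 14.9 and 19.3 normalised reads without overlap, where 19.2% of all genes fell. In SKO it fell by 0.54 (adjusted p = 0.0089), where 18.7% fell. Leaving out SKO non-tumour replicate 3 gave −0.42 (adjusted p = 0.067), and the WT call was lost without any of 3 single libraries. The other differences were −0.56 in WT of sequencing group 2 (adjusted p = 0.0665), −0.43 in MKO, −0.28 in BKO and −0.20 in IKO, where 12%, 7.56%, 6.32% and 15.1% of all genes fell.

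The 5 immunoglobulin members had differences of both signs between tumour and non-tumour liver. Igkc in WT tumours of sequencing group 1 was split, with 8025 and 6282 normalised reads in replicates 1 and 4 and 1074 and 809.7 in replicates 2 and 3; Jchain was split the same way, with 113.5 and 73.6 against 15 and 9.92. Igkc differed from non-tumour liver by 0.87 there (limma adjusted p = 0.377), by 1.41 in WT of sequencing group 2 (adjusted p = 0.0587, without overlap), by 0.66 in SKO, by 0.01 in IKO and by −0.10 in MKO (adjusted p = 0.932). In MKO all 6 members had negative differences, with a median of −0.41, and 0 were called by limma or at an unadjusted p below 0.05. Ighm differed by −0.83 in IKO, −0.76 in WT of sequencing group 2, −0.68 in MKO and −0.22 in WT of sequencing group 1, and by 0.16 in SKO and 0.06 in BKO, with adjusted p from 0.148 to 0.946. Pigr, the receptor that carries joining-chain IgA, fell in tumours of all 6 comparisons, by 0.86 in IKO to 2.19 in SKO. Of all genes, 6.32% (BKO) to 19.2% (WT of sequencing group 1) were called lower in these comparisons.

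The mix of heavy-chain classes varied widely between libraries, and the shares were described without a test. Of the reads of the 6 measured heavy-chain constant genes, Ighm took a median of 54.2% over all libraries, with a range of 4.6% to 86.7%. Igha, the IgA gene, took a median of 12.7% (0.278% to 71.3%) and Ighg2b 13.1% (1.06% to 89.0%). In 8-month WT of sequencing group 1 Igha took 11.9% ± 3.85 (SD, n = 4) in non-tumour liver and 41.6% ± 23.7 in tumours. Igha was called higher in tumours than in non-tumour liver in SKO (2.10, limma adjusted p = 0.0017), in IKO (1.85, adjusted p = 0.0071) and in WT of sequencing group 1 (1.86, adjusted p = 0.0050). The WT difference was 1.23 (adjusted p = 0.0717) without WT tumour replicate 1, and its adjusted p was 0.0761 with the 2 groups alone. In these comparisons 6105, 5489 and 6381 of the 12966 genes had an unadjusted limma p below 0.05, in either direction. Those counts use a looser threshold than the Igha calls and both directions. The share of all genes called higher is not given here, so the Igha calls cannot be weighed against it.

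One pair of libraries stood apart in class. IKO at 8 months, replicate 3, had 4356 normalised reads of Ighg2b in non-tumour liver and 2780 in tumour, against 8.83 to 190.9 in the other IKO libraries of that age. Ighg2b took 89.0% (95% exact binomial interval 87.9% to 90.0%, counting error only) and 87.5% (86.1% to 88.8%) of their heavy-chain reads. The same pair had the most Igkc of the IKO groups at 8 months, 9088 and 7193 normalised reads. The labels do not say whether both came from 1 animal.

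**Figure D5:**
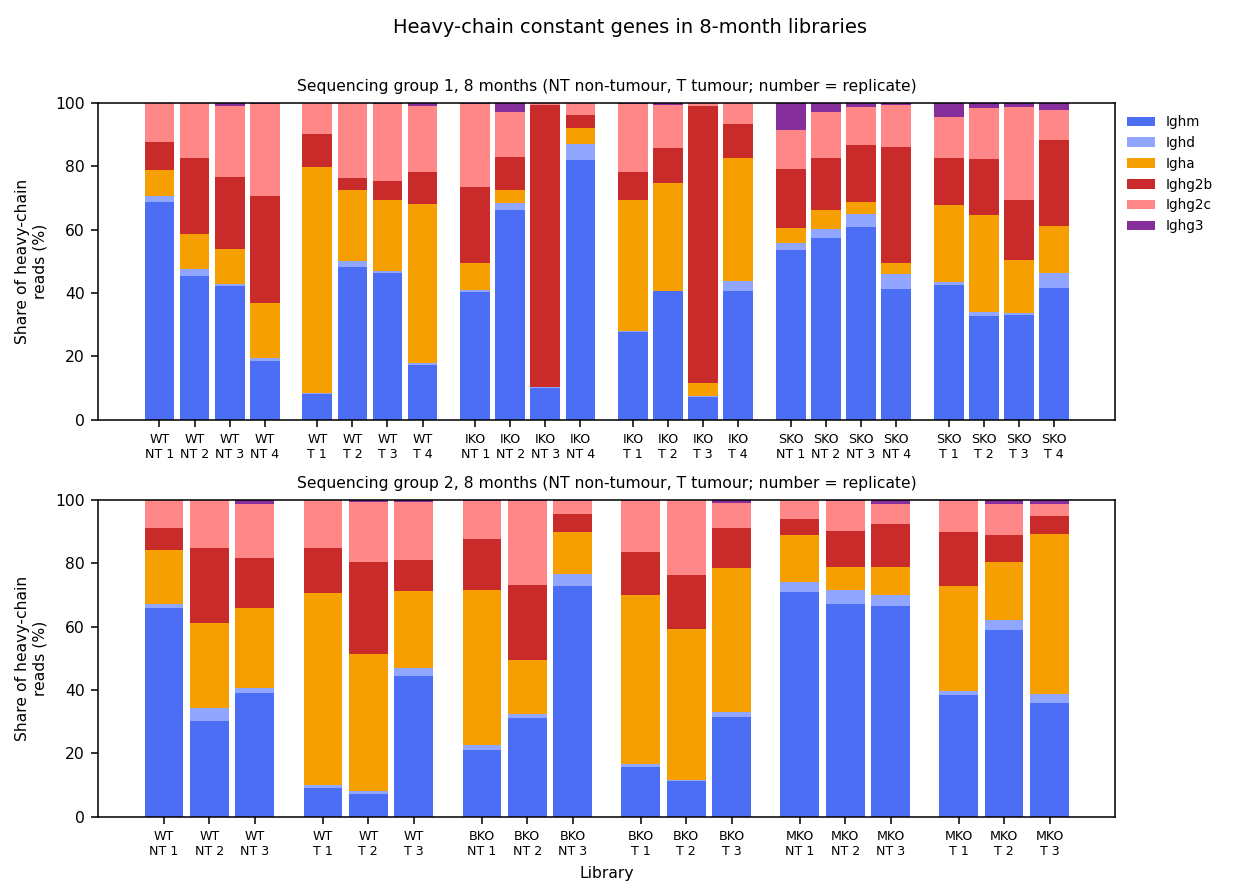
Share of reads (percent) of each of the 6 heavy-chain constant genes in every 8-month library, non-tumour and tumour, stacked to 100%. Igha is wider in most tumours than in non-tumour liver, and IKO replicate 3 is almost filled by Ighg2b in both.

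Across libraries Jchain followed Igkc most closely of all other genes tested. Pearson's r was 0.90 and Spearman's rho 0.88 over the 60 libraries of sequencing group 1 (100000 permutations, both p = 1e-05, the smallest they can give; adjusted over 10 relations 2e-05 and 2.5e-05). In sequencing group 2 r was 0.87 and rho 0.78 (n = 45, same p). Without the 2 libraries of most extreme Igkc r was 0.88 and 0.81, and within groups, after removing group means, 0.87 and 0.84. The permutations moved values between all groups of a sequencing group, so their p-values also reflect differences between groups. The within-group r was not tested. The values of 1 library share its depth and its tissue composition.

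The other members followed Igkc less. For Iglc2 r was 0.70 and 0.76 in the 2 sequencing groups (permutation p = 1e-05 in both), for Iglc3 0.62 and 0.81 (permutation p = 1e-05) and for Ighm 0.48 and 0.59 (permutation p = 7e-05 and 2e-05; adjusted 8.75e-05 and 2.86e-05). Without the 2 most extreme libraries Ighm came to 0.27 and 0.44. Bank1 had r of 0.09 (permutation p = 0.503) and −0.21 (permutation p = 0.168). Within groups, after removing group means, r with Igkc was positive for Bank1, 0.27 and 0.29. For Ighm it was 0.51 and 0.48. These within-group values were not tested.

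By mean r over both sequencing groups, the genes most like Igkc outside the members were Ighg2b (0.84), Iglc1 (0.81), Ighg2c (0.81), Igha (0.78) and Prg2 (0.74). The first 4 are immunoglobulin constant genes, and Prg2 encodes the eosinophil major basic protein. The genes most like Bank1 were Fyb (0.69), Icos (0.67), Epb41l3 (0.65), Dock10 (0.64) and Itsn1 (0.63), none of them an immunoglobulin gene. Igkc was at rank 7744 of likeness to Bank1, and both genes are active in B cells. With the mean log2 level of the B cell list, Bank1 had r of 0.47 and 0.21 in sequencing groups 1 and 2. With the macrophage list r was 0.41 and 0.47. Within groups, after removing group means, r was 0.57 and 0.54 with the B cell list and 0.07 and 0.69 with the macrophage list. None of these was tested, and the cells behind the Bank1 differences were not determined.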

How the data were processed

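RNA from 105 liver samples was read with MAPS, per the labels' protocols. The submitters' processing notes name STAR 2.7.10a, HTSeq 2.0.2, DESeq2 1.32.0 and GRCm38 (mm10), per the labels. The deposited values are log2 values from a variance-stabilising transform made by the authors, with a floor of 3.83 at 0 reads. Inverting it gave whole reads for 100% of values (within 0.05 of a whole number), which were divided by each library's size factor to give normalised reads.

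Each sequencing group was fitted with limma 3.58.1 (R 4.3.3), 1 mean per group, trended moderation and Benjamini-Hochberg adjustment over all 12966 genes. Non-tumour comparisons average 4 ages. On simulated normal values, the fit averaged over 4 ages recovered changed genes in SKO and in MKO. Single ages, tumours and libraries far from their group were not simulated. Alternatives were other filters, quantile normalization, library weights, no trend, limma-voom, only the compared groups, a replicate block and each library left out. Named genes are the 6 members, other immunoglobulin constant genes, up to 4 called genes per list and comparison, and the 5 genes most like Igkc and Bank1. The members and lists were chosen with earlier results of these data known. Same-numbered libraries deviated together in every pair for BKO tumours and non-tumour liver (r = 0.23 to 0.33) and for MKO and WT non-tumour liver at 8 months (r = 0.12 to 0.30). The B cell, plasma cell, macrophage, hepatocyte and MHC class II lists are described with the results.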

Additional observations from a re-analysis of the deposited data

Results flagged for a closer look

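Single libraries stood far from the others of their group in 5 of the 90 member-by-group sets of 4 libraries that were examined, which is 5.56%; chance gives about 1 in 20. Ighm was 3157 normalised reads in SKO at 5 months, replicate 2, against 140.3 to 199.2 in the other three, and Iglc3 was 68.0 in the same library against 5.92 to 9.44. Ighm was 1582 in SKO tumour replicate 3 against 176.4 to 200.7. Iglc2 was 8.16 in IKO non-tumour liver at 8 months, replicate 3, against 1.26 to 1.53, and 0 in WT of sequencing group 1 at 5 months, replicate 4, against 5.36 to 6.85. The Iglc2 values rest on a few reads each.

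The effect of a knockout differed between ages for 2 members by an interaction test over the 4 ages in limma. The interaction tests were not repeated under the alternatives or with libraries left out. For Bank1 in SKO the adjusted p was 0.0245, with SKO below WT at 1 month and mostly above it at 8 months. For Igkc in BKO the adjusted p was 0.0488, with BKO below WT at 1 month and above it at 5 and 8 months.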

How the results depend on the processing

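Of the alternative values for the members, those without a library aside, 735 kept direction and side of the threshold, 59 lost the call, 10 gained it and 12 changed sign. Counts of members called changed as follows. With only the compared groups fitted, SKO non-tumour liver went from 2 to 4, IKO tumour against non-tumour liver from 0 to 1, BKO tumours against WT from 3 to 0, BKO tumour against non-tumour liver from 4 to 0 and WT of sequencing group 2, tumour against non-tumour, from 0 to 1. With the replicate block the last 4 comparisons gave 1, 0, 0 and 1. With limma-voom BKO non-tumour liver went from 1 to 0 and BKO tumour against non-tumour liver from 4 to 1. Quantile normalization gave 2 in WT of sequencing group 2, tumour against non-tumour. With any 1 library left out the counts were 1 to 4 in SKO non-tumour liver, 0 to 1 in SKO tumour against non-tumour, 0 to 2 in WT of sequencing group 1, tumour against non-tumour, 0 to 1 in BKO non-tumour liver, 1 to 5 in BKO tumours, 0 to 4 in BKO tumour against non-tumour and 0 to 3 in WT of sequencing group 2, tumour against non-tumour.

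With quantile normalization the differences that changed sign were Bank1 −0.0031 in SKO against WT non-tumour liver, Igkc 0.052 in SKO against WT tumours, Iglc2 −0.029 in IKO tumour against non-tumour liver, Jchain −8.5e-05 in IKO tumour against non-tumour liver, Igkc 0.039 in MKO tumour against non-tumour liver and Iglc2 −0.099 in WT of sequencing group 2 tumour against non-tumour liver. With limma-voom on recovered reads the differences that changed sign were Bank1 −0.012 in SKO against WT non-tumour liver and Iglc2 −0.13 in WT of sequencing group 2 tumour against non-tumour liver. With library weights the differences that changed sign were Igkc 0.0049 in SKO against WT tumours, Igkc −0.071 in IKO tumour against non-tumour liver, Iglc2 −0.026 in IKO tumour against non-tumour liver and Ighm −0.13 in SKO tumour against non-tumour liver. The cause was not tested.

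With any 1 library left out, the differences whose sign turned had these ranges, none of them called with all libraries. In IKO against WT non-tumour liver, Igkc −0.039 to 0.30 and Iglc2 −0.048 to 0.053. In IKO against WT tumours, Igkc −1.04 to 0.13, Iglc3 −0.33 to 0.0034 and Bank1 −0.019 to 0.17. In SKO against WT non-tumour liver, Ighm −0.17 to 0.19 and Bank1 −0.024 to 0.050. In SKO against WT tumours, Ighm −0.12 to 0.87, Igkc −0.88 to 0.49, Iglc2 −0.33 to 0.24 and Jchain −0.78 to 0.15. In IKO tumour against non-tumour liver, Igkc −0.61 to 0.76, Iglc2 −0.070 to 0.17 and Jchain −0.16 to 0.24. In SKO tumour against non-tumour liver, Ighm −0.56 to 0.43, Igkc −0.17 to 1.08, Iglc2 −0.25 to 0.32 and Iglc3 −0.21 to 0.33. In WT of sequencing group 1 tumour against non-tumour liver, Ighm −0.50 to 0.015. In BKO against WT non-tumour liver, Ighm −0.13 to 0.11 and Bank1 −0.029 to 0.081. In MKO against WT tumours, Bank1 −0.055 to 0.28. In BKO tumour against non-tumour liver, Ighm −0.20 to 0.55. In MKO tumour against non-tumour liver, Igkc −0.45 to 0.43. In WT of sequencing group 2 tumour against non-tumour liver, Iglc2 −0.16 to 0.15.

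Replicate numbers paired the libraries by their deviations in 2 of the 32 pairs of groups checked, given with the methods, and otherwise shared only a number. With the replicate block none of the 5 rises in BKO from 1 to 8 months was called (Igkc, adjusted p = 0.0621), nor were Igkc in BKO at 5 months (0.0761), Iglc3 in BKO at 8 months (0.0845), Iglc3 in SKO at 5 months (0.18), Bank1 in IKO at 1 month (0.0989), or the rises with age of Igkc in IKO (0.0588) and Bank1 in SKO (0.0911). Depth limits Iglc2, Iglc3 and Jchain, with medians of 2.51, 4.5 and 9.59 normalised reads in sequencing group 1, and the 3 libraries a group limit sequencing group 2.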
